A study of Mus musculus with 9 samples.

Results

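The genes described here are the 50 long noncoding RNA (lncRNA) genes of mouse testis that passed a level of 1 TPM in whole-testis RNAseq. They were chosen by 2 criteria, the biotype lincRNA or antisense in the GENCODE M21 annotation of the GRCm38 assembly and a mean of at least 1 TPM over all 9 libraries, TPM being a share of the RNA of a library, corrected for transcript length and scaled to a common total. Of the 50 genes, 36 are annotated as lincRNA (an intergenic transcript) and 14 as antisense (a transcript from the strand opposite to another gene). They stand among 32035 genes with a transcript in the files, of which 16710 reached a mean of 1 TPM.

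Whole testes of 15-week-old mice were compared in 3 groups of 3 libraries. WT mice served as controls. Kpna6ΔIBB/ΔIBB mice lack exon 2 of Kpna6, which encodes importin α7, a nuclear import receptor, and make a shortened protein without the importin β binding domain. Kpna6-/- mice carry a gene trap in intron 1 in all cells. According to the study, germ cells of this line keep importin α7 from a start site downstream of the trap, so that germ cells of this line do not lack the protein. All mice were kept on the C57Bl6/N background, neither mutation is restricted to a cell type, and nothing in the labels names litters or batches.

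The name testis lncRNA genes goes further than the data. The transcript set behind the files held a transcript for 93 of the 8813 lincRNA and antisense genes of the annotation (1.055%), against 98.706% of the protein-coding genes. The 50 genes are therefore the better expressed ones of those 93, not the lncRNA repertoire of the testis. Of the 93 genes, 43 stayed under 1 TPM, 4 of them at 0 in every library. The 3 genes just inside the threshold were D830039M14Rik (1.08 TPM), Gm5113 (1.07 TPM) and Gm11110 (1.02 TPM), and the 3 just outside were Gm10845 (0.958 TPM), AC174800.1 (0.822 TPM) and 9230019H11Rik (0.768 TPM). A list of 62 names of well-studied lncRNAs, among them Xist, Malat1, Neat1 and Meg3, had no gene among the 50. Only Tsx, Zfas1 and Snhg11 of that list had a transcript in the files, and the annotation gives these other biotypes (protein_coding, processed_transcript and protein_coding).

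LncRNAs are transcribed by RNA polymerase II and are often capped, spliced and polyadenylated like mRNAs, but carry no long conserved reading frame. Some act in cis on a neighbouring gene, others bind proteins or other RNAs, and for most no role is known. The testis is known for an unusually broad transcription of the genome, above all in meiotic and postmeiotic germ cells, and many lncRNA genes were first found as cDNA clones from testis. Antisense transcripts overlap or face a protein-coding gene on the other strand. The library kit used here does not mark the strand, so reads from the overlapping part of a gene pair cannot be told apart.

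Sequences are shown for 7 of the genes described in the comparisons, since the function of these RNAs is not known and the sequence is what identifies them. The first is the RNA with the highest level of the set, transcript 1700013D24Rik-201 (chr6:124347598-124357069, minus strand, GRCm38), of which bases 1 to 300 of 513 are given as DNA letters. Capitals mark the start of its longest reading frame, which runs from base 51 to base 413 and has 120 codons. It is given as a computed frame only, since whether it is translated was not measured.
1700013D24Rik-201: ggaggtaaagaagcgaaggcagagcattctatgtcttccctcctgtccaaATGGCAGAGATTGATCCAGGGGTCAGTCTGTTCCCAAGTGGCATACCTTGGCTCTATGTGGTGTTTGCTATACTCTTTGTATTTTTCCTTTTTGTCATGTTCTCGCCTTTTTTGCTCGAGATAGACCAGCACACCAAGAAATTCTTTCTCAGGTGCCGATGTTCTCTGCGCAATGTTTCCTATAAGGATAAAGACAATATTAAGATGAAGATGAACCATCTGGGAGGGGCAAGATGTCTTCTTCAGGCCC

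The next sequences are promoters from RefSeq on GRCm38.p6, each from 250 bases before to 50 bases after a start site, written 5′ to 3′ on the strand of the gene. The first 5 belong to genes that were lower together in Kpna6ΔIBB/ΔIBB testes and the last to the one gene that was higher, and each RefSeq start lies at most 61 bases from the GENCODE start. Capitals mark a motif, in Gm1968 the MYB letters TAACGG and in 5830454E08Rik the X-box letters GTTGCC, both read on the other strand.
Gm1968 (chr16:29979075-29979374, minus strand): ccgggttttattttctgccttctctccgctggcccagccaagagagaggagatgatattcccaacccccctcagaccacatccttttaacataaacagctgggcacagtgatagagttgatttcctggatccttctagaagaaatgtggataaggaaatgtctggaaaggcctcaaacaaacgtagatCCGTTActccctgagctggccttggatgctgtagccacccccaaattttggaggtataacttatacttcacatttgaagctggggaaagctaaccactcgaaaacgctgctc
Gm5784 (chr12:19387620-19387919, plus strand): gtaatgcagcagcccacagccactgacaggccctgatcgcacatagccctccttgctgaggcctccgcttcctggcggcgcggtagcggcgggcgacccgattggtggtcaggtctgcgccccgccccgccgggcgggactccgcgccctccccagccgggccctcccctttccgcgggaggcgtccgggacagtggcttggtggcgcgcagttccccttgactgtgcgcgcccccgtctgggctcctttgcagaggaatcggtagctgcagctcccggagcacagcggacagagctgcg
Gm11149 (chr9:49518038-49518337, plus strand): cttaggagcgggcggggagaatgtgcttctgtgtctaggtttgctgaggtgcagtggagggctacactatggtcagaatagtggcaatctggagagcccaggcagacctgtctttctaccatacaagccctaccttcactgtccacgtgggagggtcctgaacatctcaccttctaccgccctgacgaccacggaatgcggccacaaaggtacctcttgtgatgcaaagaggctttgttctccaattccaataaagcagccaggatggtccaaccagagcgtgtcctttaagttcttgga
Gm5627 (chr9:102739398-102739697, plus strand): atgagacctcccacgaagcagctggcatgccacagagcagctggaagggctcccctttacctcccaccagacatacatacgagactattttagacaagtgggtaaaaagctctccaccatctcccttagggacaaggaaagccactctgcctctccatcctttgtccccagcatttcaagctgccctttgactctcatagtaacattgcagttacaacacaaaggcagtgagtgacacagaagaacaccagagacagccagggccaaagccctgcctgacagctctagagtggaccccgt
4930533K18Rik (chr10:70868391-70868690, plus strand): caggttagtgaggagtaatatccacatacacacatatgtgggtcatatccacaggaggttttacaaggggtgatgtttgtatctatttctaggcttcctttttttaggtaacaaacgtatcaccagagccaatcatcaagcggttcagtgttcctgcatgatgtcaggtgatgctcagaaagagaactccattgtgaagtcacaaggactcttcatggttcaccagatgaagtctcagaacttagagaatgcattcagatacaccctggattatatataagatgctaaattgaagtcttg
5830454E08Rik (chr9:120577081-120577380, plus strand): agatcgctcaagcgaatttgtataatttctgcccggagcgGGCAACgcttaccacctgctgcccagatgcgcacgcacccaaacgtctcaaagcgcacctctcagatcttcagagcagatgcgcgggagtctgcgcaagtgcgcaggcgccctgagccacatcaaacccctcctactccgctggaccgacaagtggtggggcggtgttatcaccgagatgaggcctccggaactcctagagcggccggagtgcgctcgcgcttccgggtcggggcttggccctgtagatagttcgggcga

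RefSeq promoters were matched by symbol for 26 of the 50 genes, with 34 start sites. Both strands were searched for TGACGTCA (the cyclic AMP response element), GTTGCC (part of the X-box bound by RFX factors) and TAACGG (a MYB site), letters that do not overlap one another. TGACGTCA was found in the promoters of 0 of the 26 genes and in 1.79% of 32851 mouse promoters of the same length. GTTGCC was found for 6 genes, 4930567H17Rik, 4933427D06Rik, 5830454E08Rik, D830013O20Rik, Gm10451 and Gm14221, and in 12.5% of all promoters. A gene was counted if any of its start sites matched, whereas the shares of all promoters count each start site, so the values are not like for like. TAACGG was found for 2 genes, Gm1968 and Gm10479, and in 2.76% of all promoters. The RefSeq start matched to Gm10479 lies 1122708 bases from its GENCODE start, so that window is outside the gene measured here. The windows with GTTGCC lie 145427 bases from the GENCODE start in 4933427D06Rik and 39202 bases in Gm14221. A match describes letters in these windows, not a bound site.

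The 50 RNAs were short and had few exons. The transcript with the highest level of each gene had a median length of 989 bases (192 to 5117) and a median of 3 exons, against 2127 bases and 7 exons in protein-coding genes with a mean of at least 1 TPM. Lengths are those deposited with the counts, while exons and reading frames are those of GENCODE M21. Of the transcripts of the 50 genes, 89.39% had the same length in both. Single-exon transcripts made up 26.0% of the lncRNAs and 4.0% of the protein-coding transcripts. The longest reading frame had a median of 107 codons against 358. A frame of at least 200 codons was present in 6 of the lncRNAs, and the longest, of 627 codons, lies in 4932416K20Rik (chr8:104794928-104799052). RefSeq lists 35 of the 50 symbols, 32 as lncRNA, 2 as protein coding (Gm5784 and Gm10479) and 1, 4933411G06Rik, as a transcribed pseudogene.

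The genes lie on 15 chromosomes, 8 of them on chromosome 12 and 7 each on chromosomes 8 and 10. A single one, 4930567H17Rik, lies on the X chromosome. None lies within 10 Mb of Kpna6 on chromosome 4. For 32 genes no protein-coding start lies within 10 kb, and for 11 none within 100 kb.

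Part of the set could not be measured apart from other genes. Exons of 17 genes overlap exons of another quantified gene, and 3 of them lie entirely within such exons on the other strand: Gm11175 within Jund, which encodes a subunit of the transcription factor AP-1, Gm26571 within Riox1, which encodes a ribosomal oxygenase, and Gm10602 within Inppl1, which encodes the lipid phosphatase SHIP2. Another 30 genes overlap no exon of any annotated gene. For 7 genes most of a transcript was shared at 95% identity or more with another gene, among them Gm10339, which shares it with 7 genes, and 4930567H17Rik, whose 840 bases match the pseudogene Gm14725 at 98.1% identity. 1700026F02Rik is contained at 100% identity in Zfp709. The levels of such genes are uncertain, since kallisto splits the shared reads between them by estimation.

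Levels in TPM spanned more than 2 orders of magnitude and were dominated by 4 RNAs. The levels are a description, since the genes were chosen by them. The median of the 50 means was 7.51 TPM, against 14.3 TPM for protein-coding genes above the same threshold. A mean of at least 10 TPM was reached by 22 genes and of at least 100 TPM by 4, and these 4 together held 54.1% of the summed level of the set. In all, the set took 0.0652 to 0.0809% of the counts on genes in a library.

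1700013D24Rik was the highest of all with a mean of 215 TPM, rank 890 among all genes. Its level was 246, 230 and 287 TPM in the WT libraries, 118, 161 and 206 TPM in Kpna6ΔIBB/ΔIBB and 195, 223 and 267 TPM in Kpna6-/-. The 3 Kpna6ΔIBB/ΔIBB values lay below the WT values, whereas the Kpna6-/- values overlapped them. 4930555F03Rik (chr8:49370886-49548994) had 162, 129 and 148 TPM in WT, 121, 112 and 129 TPM in Kpna6ΔIBB/ΔIBB and 149, 154 and 146 TPM in Kpna6-/-. On this scale the highest Kpna6ΔIBB/ΔIBB library came close to the lowest WT library. Gm7008 (chr12:40222758-40229184), antisense to Ifrd1, had 148, 152 and 135 TPM in WT, 117, 101 and 118 TPM in Kpna6ΔIBB/ΔIBB and 137, 146 and 129 TPM in Kpna6-/-. C2cd6b (chr1:58997123-59003539) had 127, 135 and 137 TPM in WT, 108, 115 and 110 TPM in Kpna6ΔIBB/ΔIBB and 118, 127 and 128 TPM in Kpna6-/-. In the order of the means, 4930555F03Rik (139 TPM), Gm7008 (131 TPM) and C2cd6b (123 TPM) followed each other at distances smaller than the SD over the WT libraries of the higher gene.

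**Figure D1:**
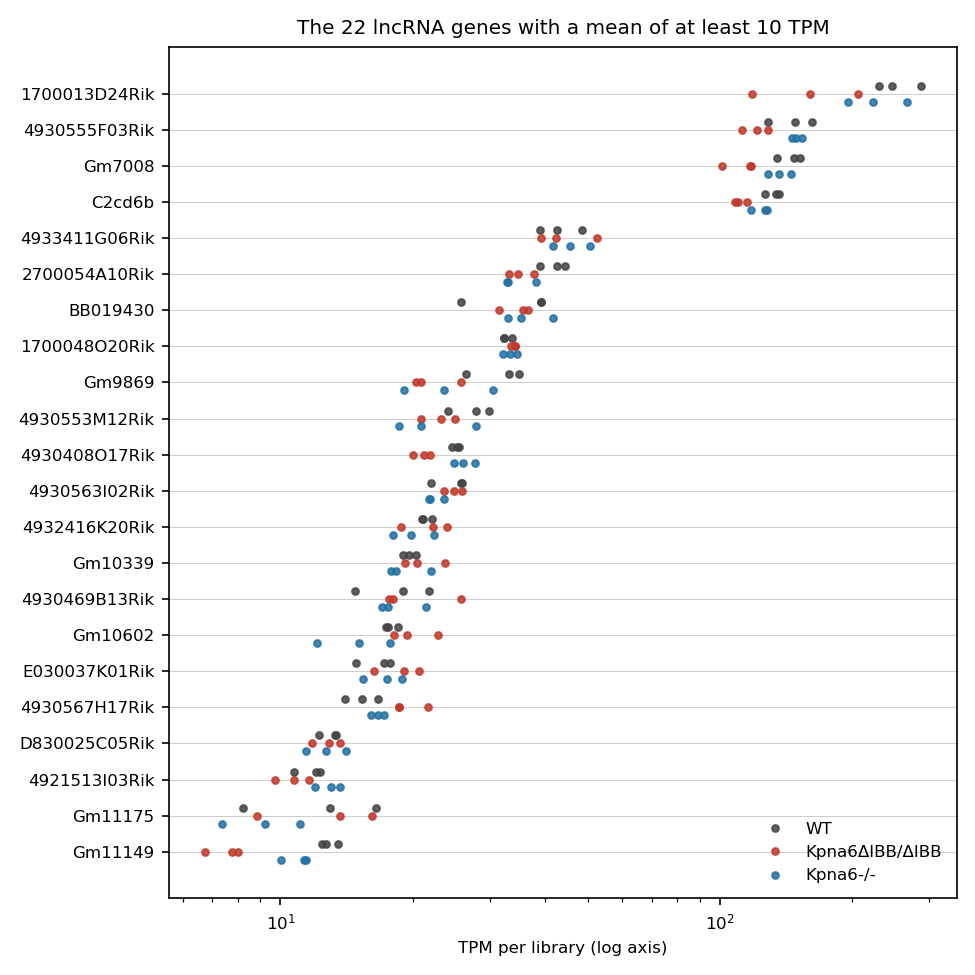
TPM in each library (x axis, log scale) of the 22 lncRNA genes with a mean of at least 10 TPM (y axis, ordered by the mean over 9 libraries); each point is 1 library, coloured by group. The 4 genes at the top lie above 100 TPM in all libraries, and the 3 Kpna6ΔIBB/ΔIBB points of Gm11149, at the bottom, lie between 6.74 and 8.01 TPM, below all WT and Kpna6-/- points.

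After a gap, the genes of rank 5 to 15 ranged from 44.7 TPM for 4933411G06Rik to 19.2 TPM for 4930469B13Rik. Between them stood, in this order, 2700054A10Rik (37.3 TPM), BB019430 (35.3 TPM), 1700048O20Rik (33.3 TPM), Gm9869 (26.1 TPM), 4930553M12Rik (24.2 TPM), 4930408O17Rik (24.1 TPM), 4930563I02Rik (23.9 TPM), 4932416K20Rik (21.04 TPM) and Gm10339 (20.1 TPM). The counts behind these levels differed. BB019430 (285 bases) rested on 30 to 49 estimated counts per library and 4932416K20Rik (3554 bases) on 1233 to 1928. 1700048O20Rik was the steadiest, with 32.2, 32.3 and 33.6 TPM in WT, 34.2, 33.5 and 34.2 TPM in Kpna6ΔIBB/ΔIBB and 32.03, 34.56 and 33.28 TPM in Kpna6-/-. Within the groups, the coefficient of variation of the 22 genes above 10 TPM had a median of 7.91% in WT, 8.95% in Kpna6ΔIBB/ΔIBB and 9.92% in Kpna6-/-. For the 28 genes under 10 TPM these medians were 18.1, 21.3 and 17.8%.

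A mean of at least 1 TPM was reached by 47 genes in WT, 50 in Kpna6ΔIBB/ΔIBB and 47 in Kpna6-/- testes, and by 45 in each of the groups. Of the 50 genes, 42 had 1 transcript in the files. Of the other 8, the transcript with the largest share of the level was the shortest one in 4 genes and the longest one in 4. 4930555F03Rik-203 (374 bases) held 93.5% of the level of its gene and Gm7008-202 (402 bases) 65.9%, whereas 4930563I02Rik-202 (971 bases), the longer of its gene, held 76.1%. For 2 minor transcripts, singled out after their values were seen and given as a description, the mean in Kpna6ΔIBB/ΔIBB was below that in WT by more than their SDs, and the Kpna6-/- mean lay between. Gm7008-203 had 19.4 ± 1.48 TPM in WT, 10.5 ± 1.11 in Kpna6ΔIBB/ΔIBB and 13.5 ± 3.68 in Kpna6-/- (SD, n = 3). 4930555F03Rik-204 had 7.20 ± 0.876, 2.10 ± 1.61 and 5.91 ± 1.45 TPM (SD, n = 3). Its deposited length differs by 1 base from that of the main transcript, which has 524 bases in GENCODE M21.

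Before the groups were compared, Kpna6 itself was examined. It had 98.3, 163 and 176 TPM in WT, 31.96, 34.17 and 34.84 TPM in Kpna6ΔIBB/ΔIBB and 134, 137 and 141 TPM in Kpna6-/-. The Kpna6ΔIBB/ΔIBB libraries lay below all others, the Kpna6-/- libraries within the WT range, and WT replicate 1 stood below its group. The log2 fold change was -1.79 ± 0.15 (SE) in Kpna6ΔIBB/ΔIBB (adjusted P = 1.94e-05, edgeR) and -0.18 ± 0.14 in Kpna6-/- (adjusted P = 0.586). The latter became -0.38 (adjusted P = 0.000345, edgeR) without WT replicate 1. Counts were summed over all transcripts of the gene and do not separate trapped from untrapped RNA, so the Kpna6-/- value is no check of the trap.

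Library depth was even, with 24859751 to 31484692 estimated counts on genes per library. Markers of some cell types moved with the groups. In Kpna6ΔIBB/ΔIBB against WT, 10 of 10 elongating spermatid and 8 of 8 round spermatid genes fell, and 12 of 12 Sertoli genes rose, with median log2 changes of -0.37, -0.51 and 0.59. Of 8 spermatocyte genes 1 rose and 1 fell (median -0.13), of 8 Leydig genes 2 rose (0.04) and of 5 endothelial genes 1 fell (-0.01). Of 5 peritubular myoid genes 4 rose (0.43), of 6 macrophage genes 2 rose (0.39) and of 8 spermatogonial genes 3 rose and 1 fell (0.32). In Kpna6-/- against WT 4 of the 12 Sertoli genes rose and no spermatid gene of either list was called. The summed level of the elongating spermatid genes was 72300 to 82600 TPM in WT, 60600 to 68800 in Kpna6ΔIBB/ΔIBB and 80800 to 82400 in Kpna6-/-. The sum of the round spermatid genes was 2020 to 2210, 1690 to 1890 and 2000 to 2130 TPM, and that of the Sertoli genes 1210 to 1330, 2010 to 2390 and 1470 to 1550 TPM. Epididymis genes reached 83.0 TPM in Kpna6ΔIBB/ΔIBB replicate 3 and 4.32 to 8.39 TPM in the other 8 libraries. In whole tissue, fewer cells of a type and less RNA per cell cannot be told apart, and the part of these shifts in the results below was not tested.

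Against WT, 14 lncRNAs were lower and 1 was higher in Kpna6ΔIBB/ΔIBB testes, and 30 were not called. Of the 50 genes 45 passed the filter on low counts, and calls were made at an adjusted P below 0.05 (edgeR quasi-likelihood test, Benjamini-Hochberg adjustment over all 18797 genes tested). Among all genes tested 36.6% were called, 17.7% higher and 18.9% lower. The share of lncRNAs called, 33.3%, was near that background, while 31.1% were lower and 2.22% higher. The median log2 fold change was -0.184 over the 45 lncRNAs and 0.009 over all genes. With scaling by library size in place of TMM, the split was 12 lower and 4 higher, beside 12.4% lower and 28.8% higher among all genes, while limma on log2(TPM + 0.1) gave 11 lower and 4 higher, beside 8.6% lower and 20.8% higher among all genes. Without Kpna6ΔIBB/ΔIBB replicate 3, the library with the high level of epididymis genes, 14 fell and 0 rose.

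Gm1968 (chr16:29957927-29979184) and Gm5784 (chr12:19387809-19433081) had the largest changes that held in every fit with a library left out. Gm1968 is a low-level RNA of 348 bases and 3 exons, with 0.776, 0.560 and 0.437 normalized CPM (counts scaled to a common library total) in WT, 0.153, 0.126 and 0.220 in Kpna6ΔIBB/ΔIBB and 0.362, 0.519 and 0.628 in Kpna6-/-. The Kpna6ΔIBB/ΔIBB libraries lay below all others, on only 4.0 to 7.1 estimated counts each. Its log2 fold change against WT was -1.80 ± 0.43 (SE, adjusted P = 0.0068, edgeR). Gm5784, a single-exon RNA of 2478 bases that RefSeq lists as protein coding, had 6.34, 6.32 and 5.93 CPM in WT, 2.99, 3.40 and 2.49 in Kpna6ΔIBB/ΔIBB and 4.78, 5.75 and 5.21 in Kpna6-/-. Neither mutant group overlapped WT. The log2 fold change in Kpna6ΔIBB/ΔIBB was -1.06 ± 0.14, to 0.479 of the WT level (adjusted P = 0.000204, edgeR).

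Gm11149 (chr9:49518288-49572591) is antisense to Ncam1, the gene of a neural cell adhesion molecule, and shares 20.6% of its exon bases with it. It had 11.1, 10.5 and 9.94 CPM in WT, 5.02, 5.76 and 6.01 in Kpna6ΔIBB/ΔIBB and 8.19, 9.35 and 9.35 in Kpna6-/-. The 3 groups did not overlap. Its log2 fold change was -0.90 ± 0.11 (adjusted P = 0.000106, edgeR), and that of its sum with Ncam1 was -0.36 (adjusted P = 0.00295, edgeR). Gm5627 (chr9:102739648-102756685), with no protein-coding start within 10 kb, had 3.81, 3.29 and 3.86 CPM in WT, 1.92, 1.79 and 2.42 in Kpna6ΔIBB/ΔIBB and 3.37, 3.18 and 2.59 in Kpna6-/-. The Kpna6ΔIBB/ΔIBB libraries again lay below all others, and the log2 fold change was -0.83 ± 0.17 (adjusted P = 0.00319, edgeR).

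1700013D24Rik, the highest RNA of the set, was also among those that fell. In normalized counts it had 48.5, 45.8 and 56.5 CPM in WT, 21.3, 29.3 and 36.9 in Kpna6ΔIBB/ΔIBB and 39.2, 44.5 and 53.0 in Kpna6-/-. The Kpna6ΔIBB/ΔIBB libraries spread widely but stayed below the other groups. The log2 fold change was -0.77 ± 0.15, to 0.586 of WT (adjusted P = 0.0027, edgeR). 4930533K18Rik (chr10:70868644-70934324), antisense to Bicc1, which encodes an RNA-binding protein, had 7.29, 7.15 and 6.73 CPM in WT, 4.25, 4.28 and 3.90 in Kpna6ΔIBB/ΔIBB and 7.32, 6.75 and 6.25 in Kpna6-/-. Its replicates were tight, and the log2 fold change was -0.76 ± 0.11 (adjusted P = 0.000367, edgeR).

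**Figure D2:**
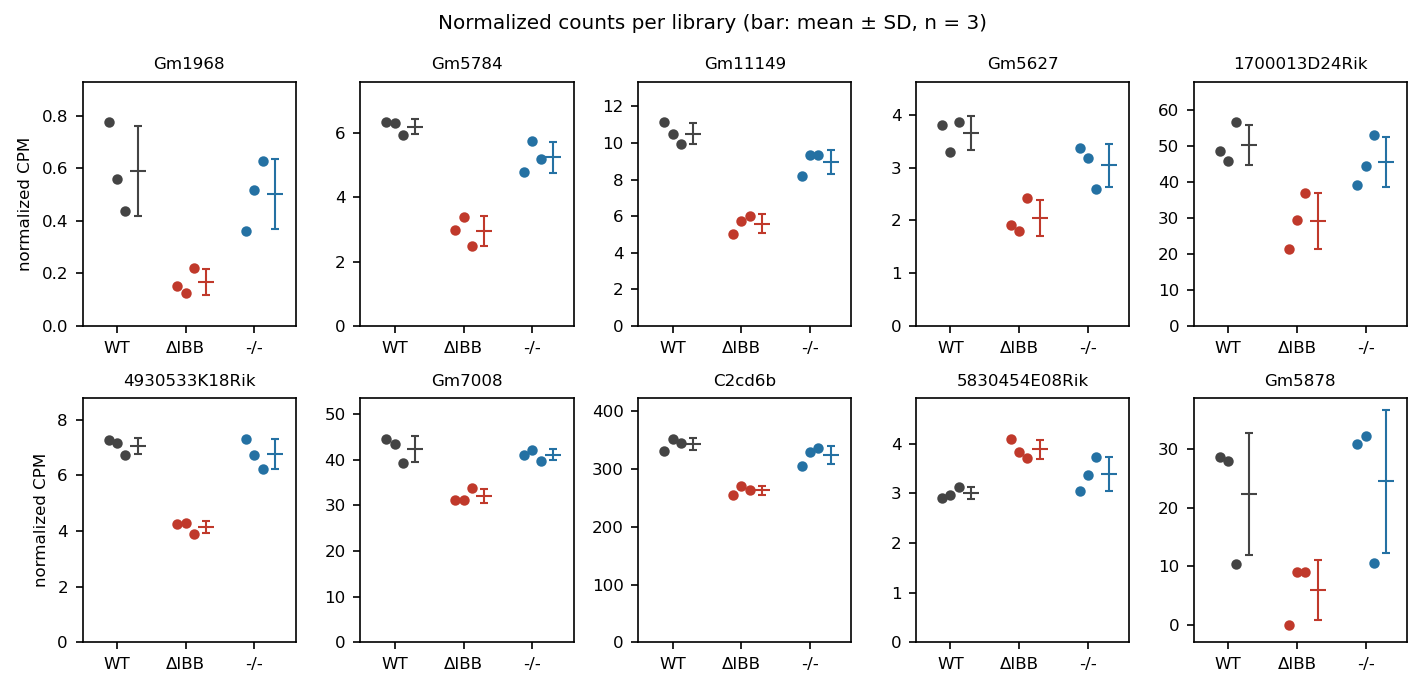
Normalized CPM in each library (y axis, linear, 1 panel per gene) for 10 lncRNA genes in WT, Kpna6ΔIBB/ΔIBB (ΔIBB) and Kpna6-/- (-/-) testes; points are libraries and bars the mean ± SD of 3. In all panels but that of 5830454E08Rik the ΔIBB points lie below both other groups, 5830454E08Rik itself is higher in ΔIBB than in WT, and the axis of Gm5878 starts below 0 to show its ΔIBB library at 0 CPM.

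The other RNAs with high levels fell by smaller amounts with small errors. The deposited C2cd6b transcript has 3365 bases, against 878 in the GENCODE M21 model that gives its biotype. C2cd6b had 331, 352 and 346 CPM in WT, 255, 270 and 263 in Kpna6ΔIBB/ΔIBB and 306, 329 and 336 in Kpna6-/-. The Kpna6ΔIBB/ΔIBB group was separate from both others, with a log2 fold change of -0.38 ± 0.04 against WT (adjusted P = 5.22e-05, edgeR), the lowest P-value of the set. Gm7008 had 44.6, 43.5 and 39.2 CPM in WT, 31.1, 31.2 and 33.8 in Kpna6ΔIBB/ΔIBB and 41.1, 42.2 and 39.8 in Kpna6-/-. It changed by -0.40 ± 0.06 (adjusted P = 0.000783, edgeR). The remaining falls were 2700054A10Rik (-0.42 ± 0.07), 4933408J17Rik (-0.41 ± 0.12), 4930408O17Rik (-0.38 ± 0.10) and 4930555F03Rik (-0.36 ± 0.09) on the log2 scale, with adjusted P-values from 0.00127 to 0.0227. 2700054A10Rik was also lower in Kpna6-/- than in WT, by -0.25 ± 0.08, without a call (adjusted P = 0.15, edgeR). Between the lines it differed by -0.19 ± 0.07 and was not called (adjusted P = 0.0729, edgeR). The sum of 2700054A10Rik with the genes that share at least 100 bases with it changed by -0.11 (adjusted P = 0.0758, edgeR), and that of 4933408J17Rik with Snrpf by -0.08 (adjusted P = 0.27). Snrpf had a mean of 50.1 CPM in WT against 6.15 for 4933408J17Rik, so the latter sum mostly follows Snrpf. It cannot decide whether the lncRNA alone fell.

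For 4 calls the evidence was thin. 4933408J17Rik lost the threshold in 7 of 16 alternative analyses. These included the sum with Snrpf given above, which mostly follows Snrpf. The others were scaling by library size (adjusted P = 0.0666, edgeR), limma on both TPM scales (0.122) and the fits without WT replicate 2 (0.0502), WT replicate 3 (0.0528) or Kpna6ΔIBB/ΔIBB replicate 2 (0.0949). Gm9869 (chr9:60821552-60838200), antisense within Uaca, had 2.90, 3.10 and 2.37 CPM in WT, 1.65, 1.73 and 2.05 in Kpna6ΔIBB/ΔIBB and 1.74, 2.11 and 2.70 in Kpna6-/-. Its log2 fold change of -0.62 ± 0.18 (adjusted P = 0.0206, edgeR) lost the threshold under DESeq2 and without either of WT replicates 1 and 2 or Kpna6ΔIBB/ΔIBB replicates 1 and 2 (adjusted P up to 0.0789). 5830454E08Rik (chr9:120577331-120578074), the only RNA that rose, had 2.90, 2.96 and 3.13 CPM in WT, 4.10, 3.84 and 3.71 in Kpna6ΔIBB/ΔIBB and 3.04, 3.38 and 3.73 in Kpna6-/-. WT and Kpna6ΔIBB/ΔIBB did not overlap, but the log2 fold change of 0.38 ± 0.13 (adjusted P = 0.0471, edgeR) passed in 7 of 16 alternative analyses and with none of the libraries left out.

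Gm5878 (chr6:85111416-85126125) had the largest log2 fold change of the set, -1.86 ± 0.66 (adjusted P = 0.0453, edgeR), and the least even libraries. It had 28.8, 28.1 and 10.4 CPM in WT, 0, 8.96 and 8.97 in Kpna6ΔIBB/ΔIBB and 30.9, 32.3 and 10.5 in Kpna6-/-. Its deposited counts fell into steps. They were 853.4, 852.3 and 284.9 in WT, 0.5, 284.6 and 285.1 in Kpna6ΔIBB/ΔIBB and 853.1, 995.8 and 284.4 in Kpna6-/-, so that 4 libraries from all 3 groups agreed within 1 count although their depths differed, and 3 others stood at 2.99 to 3.00 times that count. Of 11696 genes with at least 200 counts in 4 or more libraries, this was the only one with 4 libraries within 1 count of each other. The call was lost in 8 of 16 alternative analyses, among them DESeq2 (adjusted P = 0.459) and the fits without WT replicate 1 (0.128), WT replicate 2 (0.126) or Kpna6ΔIBB/ΔIBB replicate 2 (0.0591). Without Gm5878, 13 lncRNAs were lower in Kpna6ΔIBB/ΔIBB than in WT and 12 lower than in Kpna6-/-. What sets these counts was not tested.

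The counts were also taken by name, class, overlap and level. Of 15 tested genes named after RIKEN testis clones 5 fell, of 18 named as Gm models 7 fell, and of the 12 others 2 fell and 1 rose. Of 31 tested lincRNAs 10 fell and 1 rose, and of 14 antisense genes 4 fell. Among the 20 genes whose exons overlap another gene 7 fell, and among the 25 tested without such overlap 7 fell and 1 rose. Of the 22 genes above 10 TPM 8 fell and none rose. The share called ran from 25% to 38.9% over these subsets, around the 36.6% of all genes tested.

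In Kpna6-/- testes no lncRNA passed the test against WT. All 45 tested genes stayed above an adjusted P of 0.05, 4 had an unadjusted P under 0.05, and DESeq2 called 0. Among the 18681 genes tested 1.6% were called, 0.889% higher and 0.712% lower, and 0 of 45 is near that background. The median log2 fold change of the 45 was -0.049, and the values ran from -0.79 (Prr33) to 0.79 (Gm26571). Gm26571, which lies entirely within Riox1 exons, had 1.35, 1.88 and 1.13 CPM in WT and 2.57, 2.14 and 2.88 in Kpna6-/-. The groups did not overlap, yet the adjusted P was 0.105 (edgeR). For the 4 RNAs with the highest levels, intervals of ± 2 SE around the log2 fold change differed in width. They ran from -0.17 to 0.00 for C2cd6b, from -0.17 to 0.07 for Gm7008, from -0.10 to 0.24 for 4930555F03Rik and from -0.34 to 0.06 for 1700013D24Rik. The last nearly reaches the -0.36 called for 4930555F03Rik in Kpna6ΔIBB/ΔIBB, so a fall of about that size is not excluded.

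**Figure D3:**
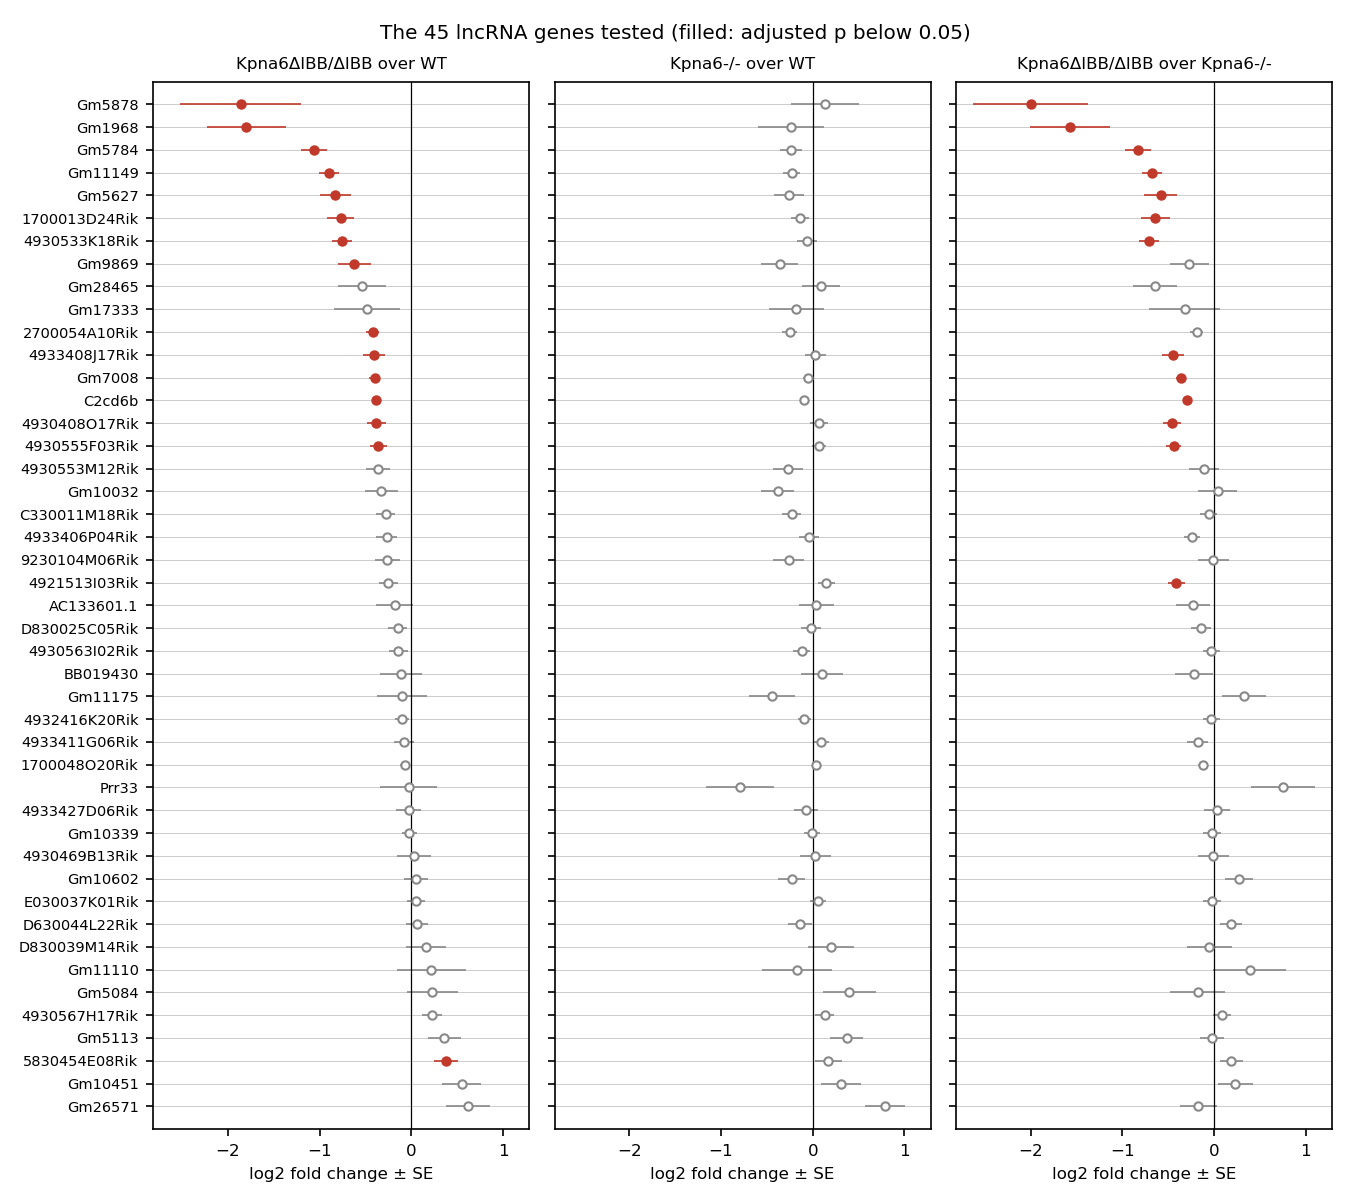
Log2 fold change with its standard error (x axes) of the 45 tested lncRNA genes (y axis, ordered by the change in Kpna6ΔIBB/ΔIBB over WT) in the 3 comparisons; filled points passed an adjusted P of 0.05. The filled points are 14 lower and 1 higher at the left, none in the middle and 13 lower at the right.

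The mutant lines were also compared directly, with the same Kpna6ΔIBB/ΔIBB libraries as above, so that these values are not independent of the comparison with WT. In Kpna6ΔIBB/ΔIBB against Kpna6-/- testes 13 of 45 lncRNAs were lower and 0 higher. Among 18752 genes tested 30.3% were called, 13.5% higher and 16.8% lower, and the share of lncRNAs called, 28.9%, was near that. With limma on log2(TPM + 0.1) 8 were lower and 1 higher, beside 7.03% lower and 20.2% higher among all genes, and with scaling by library size 12 were lower and 0 higher, beside 10.8% lower and 26.3% higher. The log2 differences ran up to -2.00 ± 0.63 for Gm5878 (adjusted P = 0.0309, edgeR), -1.57 ± 0.44 for Gm1968 (0.0166), -0.83 ± 0.14 for Gm5784 (0.00114), -0.71 ± 0.11 for 4930533K18Rik (0.000514) and -0.68 ± 0.11 for Gm11149 (0.000603). Gm5878 lost this call under DESeq2, with limma and without either of Kpna6-/- replicates 1 and 2 (adjusted P of 0.11 and 0.12), and Gm1968 lost it without any one of Kpna6ΔIBB/ΔIBB replicates 1 and 2 and Kpna6-/- replicates 2 and 3.

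Other lncRNAs differed between the lines by less. 1700013D24Rik was lower in Kpna6ΔIBB/ΔIBB by a log2 difference of -0.64 ± 0.16 (adjusted P = 0.01, edgeR), which missed the threshold with limma on either TPM scale (0.091 and 0.0905) and without Kpna6-/- replicate 3 (0.0506, edgeR). Gm5627 differed by -0.58 ± 0.18 (adjusted P = 0.0313, edgeR) and missed it in 8 of 16 alternative analyses (adjusted P up to 0.114), which were DESeq2, limma on both TPM scales, scaling by library size and the fits without Kpna6ΔIBB/ΔIBB replicate 1 or 2 or Kpna6-/- replicate 1 or 2. 4930408O17Rik differed by -0.46 ± 0.10, 4930555F03Rik by -0.44 ± 0.08, Gm7008 by -0.36 ± 0.05 and C2cd6b by -0.30 ± 0.04 on the log2 scale. 4933408J17Rik differed by -0.45 ± 0.12 (adjusted P = 0.014, edgeR) and lost the call in 5 of 16 alternative analyses. These were limma on both TPM scales (0.107), the fits without Kpna6ΔIBB/ΔIBB replicate 2 (0.0631) or Kpna6-/- replicate 2 (0.058) and the sum with Snrpf (-0.05, adjusted P = 0.57, edgeR), which mostly follows Snrpf. 4921513I03Rik (chr10:120765732-120778886) had 13.1, 11.4 and 12.5 CPM in WT, 10.3, 11.1 and 9.44 in Kpna6ΔIBB/ΔIBB and 14.4, 13.7 and 12.8 in Kpna6-/-. It passed between the lines (log2 -0.41 ± 0.09, adjusted P = 0.00504, edgeR) but not against WT (-0.25 ± 0.10, adjusted P = 0.0617).

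Since many lncRNAs lie close to a protein-coding gene, neighbours were set beside them. A neighbour was a gene on the opposite strand that overlaps the lncRNA, a gene that starts head to head within 1 kb, or else the nearest start within 10 kb. In all, 23 of the 50 genes had one, giving 26 pairs, and both members were tested in 23 pairs. In Kpna6ΔIBB/ΔIBB against WT the lncRNA was called in 7 of these pairs, the neighbour in 10 and both in 4, of which 3 pairs had the same direction. These are 30.4% of the lncRNAs and 43.5% of the neighbours, near the 36.6% called among all genes and the 41.7% among protein-coding genes with a mean of at least 1 TPM.

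The pairs with the same direction were 4930408O17Rik with Clmn, Gm7008 with Ifrd1 and 5830454E08Rik with Rpl14. Clmn, which encodes the transmembrane protein calmin, overlaps 4930408O17Rik without shared exon bases and had 400, 395 and 373 CPM in WT, 297, 307 and 283 in Kpna6ΔIBB/ΔIBB and 392.4, 374.4 and 358.7 in Kpna6-/-. Its log2 fold change of -0.39 ± 0.04 (adjusted P = 6.64e-05, edgeR) stood beside -0.38 ± 0.10 for the lncRNA. Ifrd1 shares 21.1% of the exon bases of Gm7008 and changed by -0.20 ± 0.07 (adjusted P = 0.0375, edgeR). Rpl14, a ribosomal protein gene whose start lies 5887 bases from that of 5830454E08Rik, had 73.0, 75.3 and 82.2 CPM in WT and 109, 109 and 110 in Kpna6ΔIBB/ΔIBB. It rose by 0.51 ± 0.05 (adjusted P = 4.25e-05, edgeR) beside 0.38 ± 0.13 for the lncRNA.

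4930533K18Rik and Bicc1 moved in opposite directions. Bicc1 had 15.4, 13.0 and 12.7 CPM in WT, 16.8, 15.8 and 16.2 in Kpna6ΔIBB/ΔIBB and 8.95, 8.41 and 11.2 in Kpna6-/-. It was higher in Kpna6ΔIBB/ΔIBB than in WT by 0.25 ± 0.09 (adjusted P = 0.0476, edgeR) and lower in Kpna6-/- than in WT by a log2 change of -0.53 ± 0.12 (adjusted P = 0.0458). The lncRNA shares 27.3% of its exon bases with Bicc1, and the sum of the 2 changed by -0.02 (adjusted P = 0.835, edgeR) in Kpna6ΔIBB/ΔIBB. Between the lines that sum was higher in Kpna6ΔIBB/ΔIBB by 0.32, the reverse of the lncRNA alone. Bicc1 had the higher counts of the 2 genes, so their sum does not test the lncRNA alone.

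For other pairs only one gene was called. Atp8a2, which encodes a phospholipid flippase, fell by 0.55 ± 0.06 on the log2 scale (adjusted P = 8.31e-05, edgeR) in Kpna6ΔIBB/ΔIBB while 4930563I02Rik, on its opposite strand, had -0.14 ± 0.10 (0.281). Gm11149 fell while Ncam1 had -0.15 ± 0.08 (adjusted P = 0.19, edgeR). Jund rose by 0.34 ± 0.06 (adjusted P = 0.000918, edgeR) while Gm11175, which lies wholly within its exons, had -0.10 (0.816). Snrpf, a core protein gene of the spliceosome, had -0.04 (adjusted P = 0.575, edgeR) beside the fall of 4933408J17Rik, whose start lies 293 bases away. Across the 9 pairs with no shared exon bases the log2 changes had a Pearson correlation of 0.83 (Spearman 0.77), and across the 14 pairs that share exon bases 0.02 (0.14). These are descriptions over pairs measured in the same libraries, some of which share a gene.

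**Figure D4:**
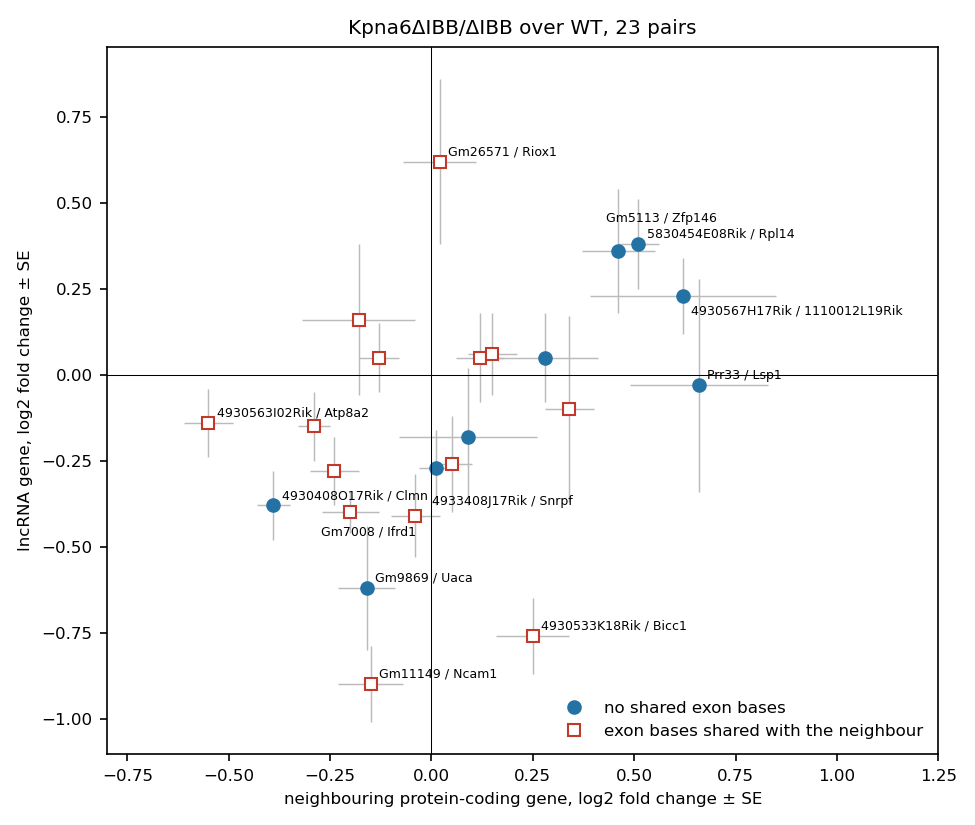
Log2 fold change in Kpna6ΔIBB/ΔIBB over WT of the neighbouring protein-coding gene (x axis) and of the lncRNA gene (y axis), with standard errors, for 23 pairs; filled circles share no exon bases and open squares do. 4930408O17Rik with Clmn lies at the lower left, 5830454E08Rik with Rpl14 at the upper right, and 4930533K18Rik with Bicc1 at the lower right.

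The 5 genes that failed the filter on low counts in every comparison were 4930546C10Rik, D830013O20Rik, Gm10479, Gm14221 and 1700026F02Rik. Their main transcripts are short, with 192 to 363 bases, and they reached 1 TPM on 0 to 17 estimated counts per library. At this depth they were not tested for a difference. 4930546C10Rik had 8, 12 and 17 estimated counts in WT, 8, 6 and 1 in Kpna6ΔIBB/ΔIBB and 4, 3 and 5 in Kpna6-/-. The WT and Kpna6-/- libraries did not overlap, but the gene was not tested. D830013O20Rik had 10, 12 and 7 estimated counts in WT, 5, 4 and 1 in Kpna6ΔIBB/ΔIBB and 6, 5 and 4 in Kpna6-/-, so that WT lay above both mutant groups, again without a test. In Gm10479, Gm14221 and 1700026F02Rik the libraries of all groups overlapped.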

How the data were processed

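Poly(A) RNA of whole testes was sequenced and quantified by the authors with kallisto (0.45 in the submitters' processing notes, mm10; the transcript set is not named). They deposited estimated counts, not normalized, and TPM values, which have the same sum in each library, per transcript. Of 96626 transcripts 95301 were assigned to genes by GENCODE M21 identifiers and summed.

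Rounded counts were filtered by filterByExpr, scaled by TMM and tested between 2 groups at a time by edgeR (4.0.16, R 4.3.3, quasi-likelihood, Benjamini-Hochberg adjustment over all genes tested), which was checked on simulated data. CPM are TMM-scaled over 9 libraries. Shared sequence was found with blastn 2.17.0. The study's sleuth fit was not used here. The labels do not tie libraries to animals, so P-values measure the spread between libraries.

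Named genes were Kpna6, the 15 highest lncRNAs, up to 10 called genes per direction and comparison without overlap, neighbours and threshold genes; other genes were named after their values were seen. The members and lists were chosen with earlier results of these data known. Alternatives were DESeq2 1.42.0, other filters, library size only, limma 3.58.1 on TPM values, a replicate block, all 9 libraries, libraries left out, other memberships and, added after seeing the data, sums over genes with shared sequence.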

Additional observations from a re-analysis of the deposited data

Results flagged for a closer look

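Of the lncRNAs that differed between the mutant lines, 5 had opposite signs against WT in the 2 lines, with a call in the direct comparison of Kpna6ΔIBB/ΔIBB with Kpna6-/- by edgeR. The log2 difference was -0.41 for 4921513I03Rik, -0.46 for 4930408O17Rik, -0.44 for 4930555F03Rik, -0.45 for 4933408J17Rik and -2.0 for Gm5878. None of the 5 passed the test in Kpna6-/- against WT. There their log2 fold changes were 0.15 ± 0.09, 0.07 ± 0.10, 0.07 ± 0.08, 0.03 ± 0.11 and 0.13 ± 0.37 (SE), so the signs in that line are not resolved. Gm5878 also has the stepped counts described above. The groups of 3 libraries are too small for a test of single outlying libraries.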

How the results depend on the processing

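In Kpna6ΔIBB/ΔIBB against WT the number of lower lncRNAs stayed within 1.5 times the 14 of the main test in every alternative but the one limited to genes without exon overlap, which left 30 of the 50 genes and gave 7. Fits with a library left out gave 10 to 14 lower and 0 to 1 higher. Where 1 was higher in these fits, it was not 5830454E08Rik, which passed in none of them. The number of higher lncRNAs, 1 in the main test, was 0 with DESeq2 and with no filter on low counts, 2 with either sum over genes that share sequence (chosen after seeing the data) and with a membership of at least 0.5 TPM, 3 with all 9 libraries in 1 fit, and 4 with library size only, with limma on log2(TPM + 1) or log2(TPM + 0.1) and with the wider biotypes. These scalings moved the median of all genes, from 0.009 to 0.107 with library size only and to 0.118 with limma on log2(TPM + 0.1). In Kpna6-/- against WT the counts were 0 except for 1 higher with no filter (Gm26571, adjusted P = 0.0497, edgeR). Between the lines, limma on log2(TPM + 1) and on log2(TPM + 0.1) gave 8 lower and 1 higher, genes without exon overlap 7 lower, the wider biotypes 1 higher, the sum over genes sharing at least 100 bases 3 higher, and fits with a library left out 10 to 15 lower. In that sum 4930533K18Rik is counted together with Bicc1, which had the higher counts, and the total was higher by 0.32 between the lines. Kpna6 in Kpna6-/- against WT ranged from -0.38 to -0.06 with a library left out. DESeq2 gave no adjusted P for Gm1968. Causes not named here were not tested.

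Same-numbered libraries did not deviate together (correlations of -0.0558 to 0.078). This gives no sign that the numbers pair the samples, but with 3 libraries per group it cannot exclude it. With the replicate block 14 lncRNAs were lower and 1 higher in Kpna6ΔIBB/ΔIBB against WT, 0 were called in Kpna6-/- and 15 were lower between the lines. The genes were in part others: 13 of the 15 calls against WT were shared, Gm5878 (adjusted P = 0.0708, edgeR with the block) and 5830454E08Rik (0.0717) were lost, and C330011M18Rik (-0.28, 0.0437) and Gm10451 (0.56, 0.0467) were gained. Between the lines all 13 were shared, and 2700054A10Rik (0.0444) and 4933411G06Rik (0.0447) were gained. The lowest genes were limited by depth, with 5 of 50 not tested.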

Other observations

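A wider choice of biotypes (processed_transcript, bidirectional_promoter_lncRNA and 3prime_overlapping_ncRNA among others) added 19 genes with a mean of at least 1 TPM. Gm10308, a 3prime_overlapping_ncRNA singled out after its values were seen, had the largest change among them. It had 4.79, 5.43 and 3.71 CPM in WT, 0.996, 1.01 and 0.283 in Kpna6ΔIBB/ΔIBB and 6.38, 4.90 and 5.80 in Kpna6-/-. The Kpna6ΔIBB/ΔIBB libraries lay below all others, with a log2 fold change of -2.62 ± 0.33 (SE) against WT (adjusted P = 0.00016, edgeR) and -2.92 ± 0.29 against Kpna6-/- (adjusted P = 2.54e-05). AC132460.1, a processed_transcript with a mean of 674 TPM, stood above every lncRNA of the report and changed by -0.24 against WT (adjusted P = 0.0012, edgeR).

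Of the names of well-studied lncRNAs with a transcript in the files, Tsx, which the annotation lists as protein coding, had 22.2, 18.8 and 22.6 CPM in WT, 31.2, 29.6 and 28.5 in Kpna6ΔIBB/ΔIBB and 23.11, 24.96 and 24.06 in Kpna6-/-. It rose by 0.49 ± 0.08 on the log2 scale against WT (adjusted P = 0.000706, edgeR). Zfas1 had a log2 fold change of 0.20 ± 0.24 (adjusted P = 0.553, edgeR) and Snhg11 of -0.35 ± 0.16 (adjusted P = 0.0993).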
